A study of Mus musculus with 6 samples.

Results

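The 39 protein-coding Hox genes of the 4 mouse Hox clusters were followed in mouse embryonic fibroblasts that had been driven towards a cardiac fate after knockdown of the linker histone H1.0 or the AP-1 subunit JUNB. Members were all rows of the deposited count table named Hoxa, Hoxb, Hoxc or Hoxd with a number, which gave 39 of 24516 gene rows, with 11 genes of HoxA, 10 of HoxB, 9 of HoxC and 9 of HoxD. Poly(A) RNA was sequenced from 6 libraries in 3 groups of 2: siH1f0, siJunb and siControl, named for the siRNA transfected on the day before induction. All 6 came from 1 line, iMGT-Myh6-eGFP-MEF, a fibroblast line carrying doxycycline-inducible Mef2c, Gata4 and Tbx5 and a GFP reporter under the cardiac Myh6 promoter, and all received 1 μg/mL doxycycline. The labels give 2 biological replicates a group. Harvest was at day 1 of induction by the sample labels, but at day 3, after sorting of GFP+ cells, by the text describing the series. No uninduced fibroblasts were analysed here, so the Hox levels below are those of induced cells in every group.

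Hox genes encode homeodomain transcription factors that give cells along the head-to-tail axis their regional identity. Within a cluster the genes stand in the order of their anterior limit of expression, with low paralog numbers at the 3′ end acting towards the head and high numbers at the 5′ end acting towards the tail and the distal limb. Fibroblasts keep much of this pattern in culture as a record of the body site they came from. The pattern is held by Polycomb and Trithorax chromatin complexes, and the proteins bind DNA together with TALE homeodomain partners of the PBX and MEIS families.

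Library totals ran from 48690447 counts in siJunb replicate 2 to 85979630 counts in siControl replicate 1. Levels are given as CPM, counts divided by the TMM-scaled library size, and as TPM, counts per gene length scaled to a fixed library sum, where genes are compared with each other. Junb was at 10.7 and 8.89 CPM in the siJunb libraries, against 39.1 and 35.7 CPM in the siControl libraries. H1f0 was at 51.6 and 54.4 CPM in the siH1f0 libraries, against 798 and 742 CPM in the siControl libraries. One library stood apart: siControl replicate 1 had 354 CPM of Mef2c, against 709 CPM in siControl replicate 2. Gata4 was at 844 against 1411 CPM and Tbx5 at 1858 against 2554 CPM in the same libraries. Each of these induced factors was lower in siControl replicate 1 than in any other library. Their part in the Hox results was not tested. A chi-square of the replicate counts was taken over all tested genes and divided by its degrees of freedom (1 for counting noise alone). It was 3.85 in siH1f0, 3.80 in siJunb and 74.6 in siControl. Over the Hox genes a similar measure, with counts expected from TMM-scaled library sizes, was 1.35 in siH1f0, 1.65 in siJunb and 5.81 in siControl. These measures differ in scaling, and a few genes with high counts can dominate the first, so their sizes are not compared. The calls, counts over lists and cluster ratios against siControl are also given without siControl replicate 1. The fit behind those calls leaves 1 siControl library and takes its spread from the knockdown groups. Rn45s, a ribosomal RNA precursor, had 3040 and 3423 CPM in siH1f0, 6684 and 5081 CPM in siJunb, and 18760 CPM in siControl replicate 1 against 6286 CPM in replicate 2. Its level was thus highest in the library that stood apart and lowest in siH1f0, and its part in the Hox results was not tested. Of 14 fibroblast markers 12 had 10 or more counts in at least 1 library, while Thy1 had 1 count and Lum 2 counts over all 6 libraries. Of the 6 smooth muscle markers Acta2 was highest, at 58.1 to 112 CPM over the 6 libraries, followed by Smtn at 33.8 to 36.4 CPM. Myh11 (0.0575 to 0.273 CPM) and Cnn1 (0.0299 to 0.182 CPM) were near 0. The 6 markers summed to 153 to 155 CPM in siH1f0, 119 CPM in siJunb and 102 to 108 CPM in siControl. Among the 8 cardiomyocyte markers Tnnt2 was highest, at 94.2 to 108 CPM. Nkx2-5 was at 0, Ryr2 had 7 counts over the 6 libraries, and Nppa was at 0.105 to 0.586 CPM. The 8 markers summed to 156 to 165 CPM in siH1f0, 119 to 120 CPM in siJunb and 141 to 158 CPM in siControl. The part of these markers in the Hox results was not tested.

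Hox paralogs of 1 number resemble each other in the homeobox, the stretch that encodes the DNA-binding homeodomain, with 67.2 to 93.9% identical bases between same-number pairs, so the separation of their counts matters for the levels below. The last 60 bases of the homeobox are shown for paralog group 8, 5′ to 3′ on the coding strand, from the GENCODE M21 transcripts on GRCm38. Capitals mark bases that differ from the HoxD member of the group.
Hoxb8: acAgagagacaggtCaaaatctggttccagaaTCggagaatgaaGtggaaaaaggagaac
Hoxc8: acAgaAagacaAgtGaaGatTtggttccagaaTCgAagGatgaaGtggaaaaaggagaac
Hoxd8: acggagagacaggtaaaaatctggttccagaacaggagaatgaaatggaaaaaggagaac
Hoxb8 on chromosome 11 and Hoxc8 on chromosome 15 differed from Hoxd8 on chromosome 2 at 5 and 11 of these 60 bases. Over the whole homeobox of 180 bases Hoxd8 was 80.6% identical to Hoxb8 and 73.3% to Hoxc8. Its longest identical run was 17 bases with Hoxb8 and 15 bases with Hoxc8. In group 9, Hoxd9 had 0 counts in all 6 libraries, while Hoxa9 had 13167, Hoxb9 6408 and Hoxc9 3644 counts in the 6 together. In group 8, Hoxc8 had 34574 counts and Hoxb8 1822, and Hoxd8 had 2, both in siJunb replicate 1. Across the 20 pairs that hold a HoxD gene, homeobox identity was 67.2 to 93.3%, and the longest identical run was 47 bases, between Hoxb3 and Hoxd3. The treatment of reads that match several genes is not given in the sources used here.

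The fibroblasts expressed genes of HoxA, HoxB and HoxC and almost none of HoxD. A total of 26 Hox genes passed the expression filter: 11 of 11 in HoxA, 8 of 10 in HoxB, 7 of 9 in HoxC and 0 of 9 in HoxD. The other 13 had 15 counts or fewer over the 6 libraries, and 9 of them were at 0 in every library. The filter fell in a wide gap, since its lowest passing member, Hoxa11, had 117 counts and its highest failing member, Hoxb2, had 15. A count of 0 allows up to 3 counts, which is 0.0345 to 0.0628 CPM depending on the library, for counting error only.

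**Figure D1:**
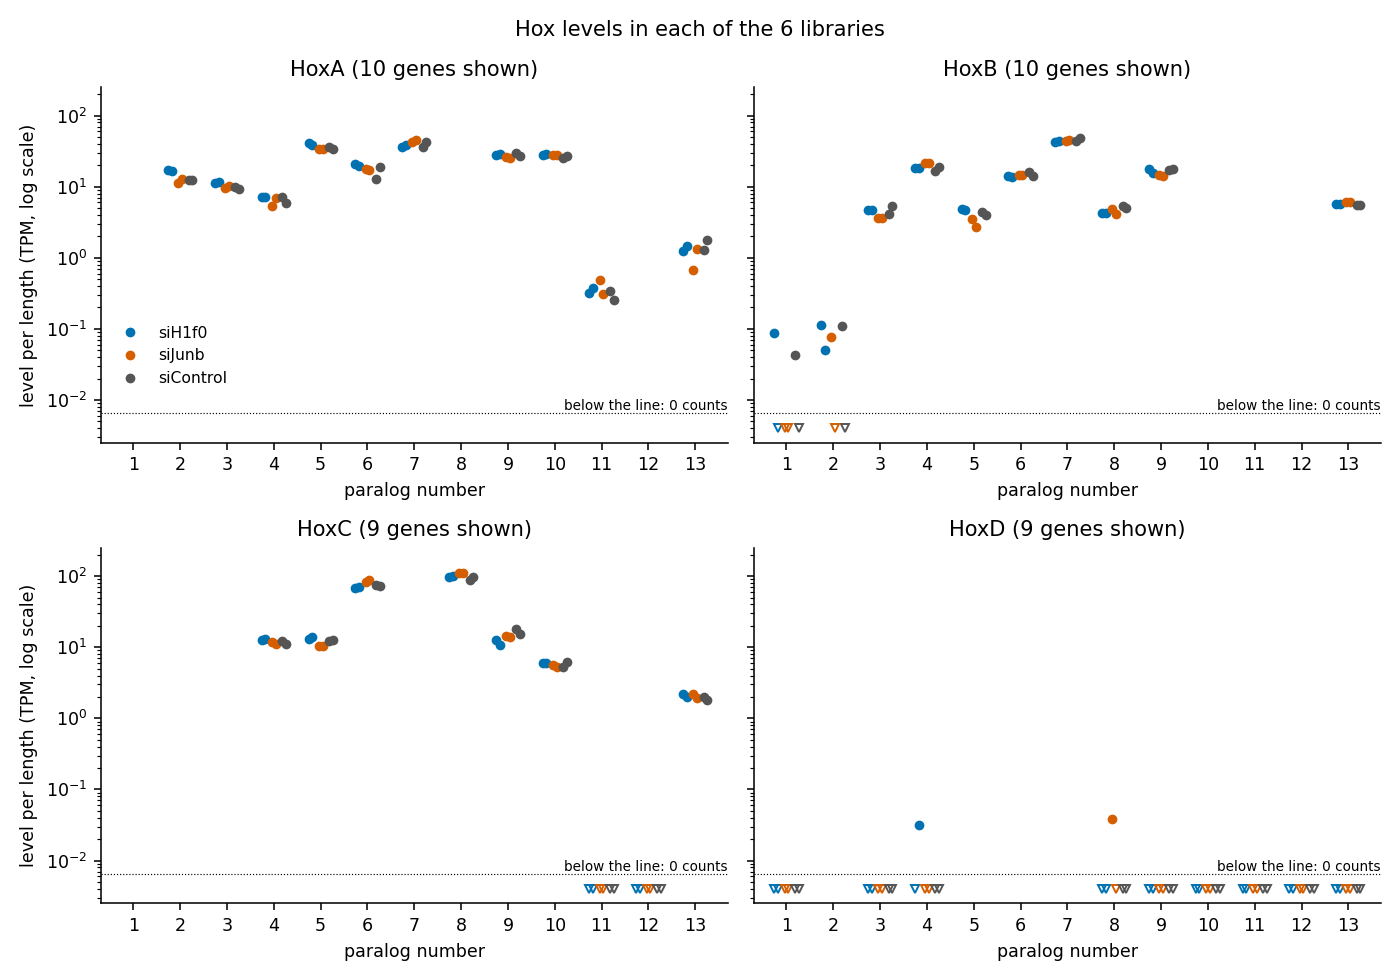
Level per length (TPM, log scale) of 38 of the 39 Hox genes against paralog number, 1 panel per cluster, 1 point per library coloured by siH1f0, siJunb and siControl, with open triangles under the dotted line for 0 counts. Hoxc8 and Hoxc6 stand highest, Hoxa11 stands below both its neighbours, and HoxD holds 2 points above 0.

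Per length, central HoxC genes were the most abundant. Hoxc8, which patterns thoracic vertebrae and brachial motor neurons, had 98.0 and 98.9 TPM in siH1f0, 112 and 111 TPM in siJunb, and 89.2 and 95.8 TPM in siControl. It averaged 100.7 ± 8.78 TPM (SD over the 6 libraries), rank 2401 of the 24516 rows. Hoxc6, its 3′ neighbour, had 68.1 and 71.4 TPM in siH1f0, 82.4 and 86.9 TPM in siJunb, and 76.3 and 72.6 TPM in siControl. The ranges of these 2 genes overlapped neither each other nor that of any other Hox gene. They were followed by Hoxb7 at a mean of 44.6 TPM, Hoxa7 at 40.2 TPM and Hoxa5, a gene needed for lung and lower neck development, at 36.5 TPM. Hoxb7 spanned 42.9 to 47.7 TPM, Hoxa7 35.7 to 45.3 TPM and Hoxa5 33.8 to 41.7 TPM over the 6 libraries, so neighbours in this order were not separated. Hoxa9 (27.6 TPM), a gene of blood progenitors, and Hoxa10 (27.3 TPM), a gene of the lumbar region and the uterus, overlapped as well and stood apart from the genes above and below.

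The lower levels fell into a long overlapping run. From Hoxb4 at 19.2 TPM down to Hoxa3 at 10.3 TPM there were 9 genes, in the order Hoxb4, Hoxa6, Hoxb9, Hoxb6, Hoxc9, Hoxa2, Hoxc5, Hoxc4 and Hoxa3, in which each range overlapped the next. A lower run held Hoxa4 (6.60 TPM), Hoxb13 (5.77), Hoxc10 (5.71), Hoxb8 (4.63), Hoxb3 (4.34) and Hoxb5 (4.04). Hoxc13 (2.02), a gene of hair and nail, Hoxa13 (1.29) and Hoxa11 (0.348) were among the lowest that were tested. In total 16 Hox genes had a mean of 10 TPM or more, 9 had 1 to 10 TPM and Hoxa11 alone among those tested was below 1. Of the 25 neighbouring pairs in this order, 17 had overlapping ranges and 8 did not.

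Along the clusters the levels changed in steps. On HoxA, which lies on chromosome 6 (GRCm38, minus strand), Hoxa10 was 56.0 to 106 times as high per length as Hoxa11 in the same library, although only 1250 bases lie between these genes. Hoxa11, which acts in the forearm and the uterus, had 0.318 and 0.373 TPM in siH1f0, 0.492 and 0.309 TPM in siJunb, and 0.342 and 0.252 TPM in siControl. Hoxa13, the gene at the 5′ end, acting in digits and the genital tract, was 1.36 to 7.09 times as high as Hoxa11, with 1.25 and 1.45 TPM in siH1f0, 0.666 and 1.33 TPM in siJunb, and 1.28 and 1.79 TPM in siControl. The 2 genes did not overlap in level, so the lowest point of HoxA was its 11th paralog and not its last gene.

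HoxC showed a similar gap, wholly below detection. On chromosome 15 from 102921131 to 103036856 (plus strand), Hoxc11 and Hoxc12 had 0 counts in all 6 libraries. Hoxc10 was at least 29.3 to 54.0 times as high per length as Hoxc11, with Hoxc11 taken at 3 counts per library, and Hoxc13 was at least 9.82 to 18.8 times as high as Hoxc12. Hoxc10 and Hoxc13, on the 2 sides of this gap, lie 37981 bases apart.

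HoxB was silent at its 3′ end instead. On chromosome 11 from 96194316 to 96368254 (plus strand), Hoxb1 had 7 counts and Hoxb2 15 counts over the 6 libraries, while Hoxb3 was at 3.57 to 5.35 TPM. Both genes act in the hindbrain, as does Hoxa2, which was expressed here. Hoxb13, a gene of the prostate and the tail, is separated from Hoxb9 by 74719 bases that hold no other Hox gene. It was read at 5.52 to 6.18 TPM, and Hoxb9 was 2.27 to 3.18 times as high per length.

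HoxD, on chromosome 2 from 74668225 to 74765142 (plus strand), gave 4 counts in all. These were the 2 of Hoxd8 in siJunb replicate 1 and 2 of Hoxd4 in siH1f0 replicate 2. Hoxd1, Hoxd3, Hoxd9, Hoxd10, Hoxd11, Hoxd12 and Hoxd13 were at 0 in every library. Against 3 counts per library for Hoxd9, Hoxa9 was at least 325 to 695 times as high per length. No fold change between groups can be given for this cluster.

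**Figure D2:**
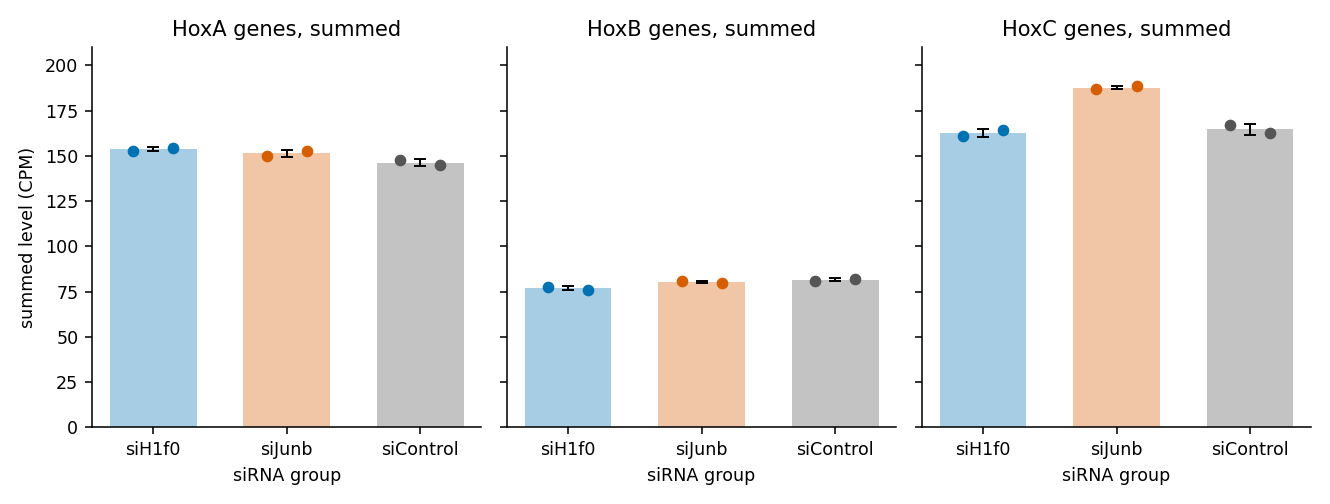
Summed CPM of HoxA, HoxB and HoxC in the siH1f0, siJunb and siControl groups, with points for the 2 libraries, bars for their mean and error bars for 1 SD. The siJunb libraries stand highest for HoxC at 187 and 189 CPM, and the other sums lie close together.

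Summed over all 39 genes, Hox transcripts made up 392 and 395 CPM in siH1f0, 418 and 421 CPM in siJunb, against 396 and 389.7 CPM in siControl. The siJunb sums were the highest and the siH1f0 and siControl sums overlapped. HoxC differed most: it summed to 161 and 164 CPM in siH1f0, 187 and 189 CPM in siJunb, against 167 and 163 CPM in siControl. The siJunb mean was thus 1.14 times the siControl mean. Hoxc8 averaged 101.1 CPM in siJunb against 82.23 CPM in siControl, and Hoxc6 51.74 against 44.53 CPM. Over the 7 tested HoxC genes the median log2 difference was 0.03, with 4 above 0 and 3 below 0, so the sum does not describe every HoxC gene. HoxA summed to 153 and 155 CPM in siH1f0, 149.9 and 153 CPM in siJunb, against 148 and 145 CPM in siControl, with siH1f0 1.05 times siControl. HoxB summed to 77.6 and 76.1 CPM in siH1f0, 80.9 and 79.9 CPM in siJunb, against 81.0 and 82.1 CPM in siControl, with siH1f0 0.943 times siControl. The smallest two-sided p that an exact permutation test of such small groups can give is 0.333, so these sums carry no test. Against siControl replicate 2 alone, the siJunb mean was 1.16 times as high for HoxC, and the siH1f0 mean 1.06 times for HoxA and 0.936 times for HoxB. Scaled to total counts alone, HoxC stayed highest in siJunb (183 and 185 CPM), whereas HoxB in siH1f0 (78.7 and 77.3 CPM) then overlapped siJunb (79.2 and 78.4 CPM). HoxC held 41.1 to 44.8% of Hox counts, HoxA 35.9 to 39.1% and HoxB 19.0 to 21.1% in the 6 libraries. In these bulk samples fewer cells expressing a gene and less RNA per cell cannot be told apart.

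Some counts are uncertain because exons overlap. In GENCODE M21, 8 of the tested Hox genes share exon bases with another gene of the table. Among the genes called below, Hoxa7 shares 586 bases with the antisense Hoxaas3, Hoxb5 shares 100 bases with the antisense Hoxb5os, and Hoxc5 shares 166 bases with Hoxc10 on the same strand. Hoxa11 shares 800 bases with the antisense Hoxa11os. Hoxb3, also named below, shares 2250 bases, or 52.9% of its exon bases, with the antisense Hoxb3os, which is not in the count table. The shared bases are 20.4% of the exon bases of Hoxa7, 3.59% of Hoxb5 and 5.37% of Hoxc5. Whether the counting used strand is not given in the sources used here. Reads in the bases shared with an antisense gene thus cannot be told apart. Reads in the bases Hoxc5 shares with Hoxc10, or Hoxa2 with Gm28308, cannot be told apart with strand either.

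Each knockdown was set against siControl, and the knockdowns against each other, with edgeR's quasi-likelihood test fitted to all 13427 tested genes and Benjamini-Hochberg adjustment. A gene was called at an adjusted p under 0.05, and fold changes are log2 values ± SE. Both knockdown comparisons use the same siControl libraries, and the direct comparison uses the knockdown libraries again. Of the 26 tested Hox genes, 8 were called in at least 1 comparison and 18 in none.

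**Figure D3:**
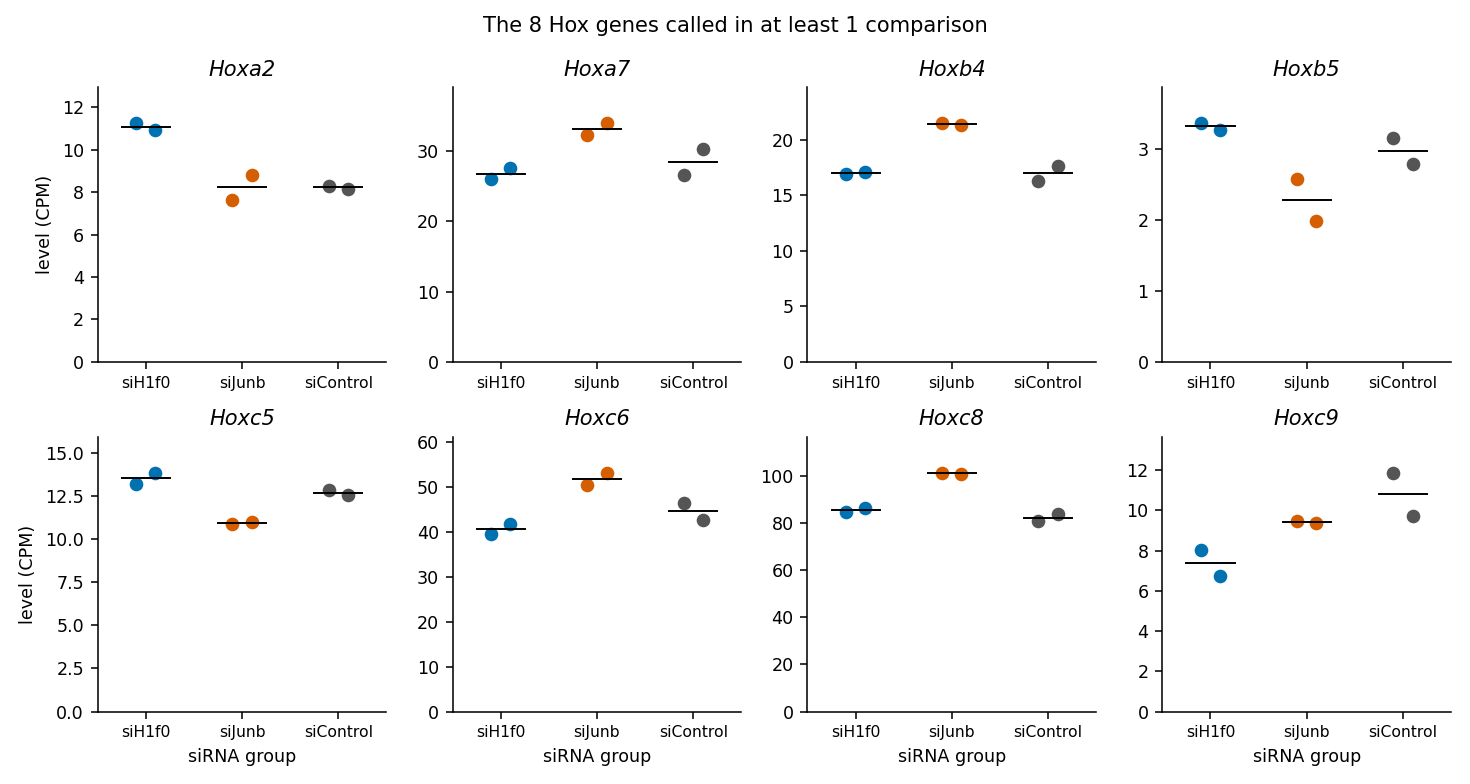
CPM in each library of the 8 Hox genes called in at least 1 comparison, with siH1f0, siJunb and siControl from left to right and a line at the mean of 2 libraries, on axes starting at 0. Hoxa2 is highest in siH1f0, Hoxb4 and Hoxc8 in siJunb, and Hoxc9 lowest in siH1f0.

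In siJunb cells Hoxc8 and Hoxb4 rose relative to siControl, and 0 Hox genes fell at the threshold. Hoxc8 had 101 and 101 CPM in siJunb, against 80.8 and 83.7 CPM in siControl. Its groups did not overlap, and it rose by 0.30 ± 0.05 on the log2 scale, or 1.23-fold (adjusted p = 0.00527, edgeR). Hoxb4, which patterns the neck and promotes the growth of blood stem cells, had 21.5 and 21.3 CPM in siJunb. In siControl it had 16.3 and 17.6 CPM. It also showed no overlap, and it rose by 0.34 ± 0.07, or 1.26-fold (adjusted p = 0.0137, edgeR). These were 2 of 26 tested Hox genes, or 7.69%, against 16.5% of all tested genes called in this comparison. In the higher direction they were 2 of 26 against a background of 8.63%, and in the lower direction 0 of 26 against 7.82%; 3 lower Hox genes had an unadjusted p under 0.05, and DESeq2 and limma-voom called 0 lower as well. The difference between these shares was not tested, and without a count filter 6 of 30 Hox genes were called, 20.0% against 18.4% of all genes.

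Several other Hox genes missed the threshold, neighbours of the called genes among them. Hoxc6, the 3′ neighbour of Hoxc8, had 50.3 and 53.2 CPM in siJunb, against 46.4 and 42.6 CPM in siControl, a log2 difference of 0.22 ± 0.06 (adjusted p = 0.0542, edgeR) that DESeq2 called (adjusted p = 0.0456). Hoxc9, the 5′ neighbour of Hoxc8, had 9.46 and 9.35 CPM in siJunb, against 11.9 and 9.72 CPM in siControl (-0.20 ± 0.12, adjusted p = 0.294, edgeR). Hoxc6 was thus higher and Hoxc9 lower in both siJunb libraries than in either siControl library. Hoxa7, on HoxA, had 32.2 and 33.9 CPM in siJunb, against 26.6 and 30.3 CPM in siControl (0.22 ± 0.08, adjusted p = 0.0863, edgeR). Hoxb3, whose annotated span encloses Hoxb4, had 5.21 and 5.11 CPM in siJunb, against 5.78 and 7.33 CPM in siControl (-0.34 ± 0.13, adjusted p = 0.111, edgeR). The 24 genes not called had log2 differences of -0.61 to 0.46, of which Hoxa13 and Hoxa11, the lowest in counts, held the ends.

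The direction of siJunb effects was mixed across the clusters. Of the 26 genes, 12 had a log2 difference above 0 and 14 below 0 (49.5% of all tested genes were below 0), with a median of -0.01, against 0.00 over all tested genes. Group ranges were separate for 11 Hox genes, which is 42.3% against 58.0% of all tested genes. Of these, 6 were higher against 29.5% of all genes, and 5 were lower against 28.4%. HoxB members lay mostly below 0, with 6 of 8 and a median of -0.10. Both calls were lost without either siJunb library, with adjusted p of 0.109 to 0.12 for Hoxb4 and 0.0757 to 0.0821 for Hoxc8. Without siControl replicate 1 both were called, at 0.28 for Hoxb4 (adjusted p = 0.00388) and 0.27 for Hoxc8 (adjusted p = 1.6e-06), and 3 more Hox genes were called: Hoxc6 at 0.28, Hoxb3 at -0.51 and Hoxb9 at -0.24. These 3 higher and 2 lower of 26 stood against 33.6% of all genes tested in that fit. The median of the 26 was then 0.03, with 12 below 0, and that of HoxB was -0.07, with 5 of 8 below 0. Set against siControl replicate 2 alone, 12 Hox genes were higher in both siJunb libraries, against 42.1% of all tested genes, and 9 were lower in both, against 42.2%.

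The sequence before the start of Hoxb4 is shown because it is the Hox gene with the larger relative rise in siJunb, beside that of its silent paralog Hoxd4. JUNB dimers bind AP-1 sites. Both windows are the 250 bases upstream of the gene start, 5′ to 3′ on the plus strand of GRCm38.p6, from RefSeq, with CG dinucleotides in capitals: Hoxb4 at chr11:96318017-96318266 and Hoxd4 at chr2:74721728-74721977.
Hoxb4: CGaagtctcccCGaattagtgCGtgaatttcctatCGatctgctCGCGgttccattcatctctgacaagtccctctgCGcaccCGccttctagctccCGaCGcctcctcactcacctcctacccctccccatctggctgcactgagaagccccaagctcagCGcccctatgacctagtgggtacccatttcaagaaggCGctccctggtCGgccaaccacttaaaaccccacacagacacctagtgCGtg
Hoxd4: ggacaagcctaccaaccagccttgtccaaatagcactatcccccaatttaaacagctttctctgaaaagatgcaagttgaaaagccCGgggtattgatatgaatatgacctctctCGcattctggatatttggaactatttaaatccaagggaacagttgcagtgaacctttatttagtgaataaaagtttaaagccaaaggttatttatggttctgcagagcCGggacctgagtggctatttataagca
The Hoxb4 window held 14 CG dinucleotides and the Hoxd4 window 3. The AP-1 motif TGANTCA and the related motif TGACGTCA were searched on both strands in windows from 250 bases before to 50 bases after the start; each reads as itself on the other strand, and they share the ends TGA and TCA but no full match. RefSeq windows were matched for 22 Hox genes, 12 tested and 10 untested, in 24 windows. TGANTCA was found in 1 of the 24, at Hoxd11, against 7.81% of all 32851 windows. TGACGTCA was found in 0 of the 24, against 1.79% of all windows. Hoxc8 was not among the genes matched. By CG count the tested Hox windows had a median of 14 and the untested ones, mostly HoxD, 20.0, against 7.0 over all windows.

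In siH1f0 cells Hoxa2 rose and Hoxc9 fell relative to siControl. Hoxa2, the selector gene of the hyoid arch and a hindbrain gene, had 11.3 and 10.9 CPM in siH1f0, against 8.31 and 8.17 CPM in siControl. Its groups did not overlap and it rose by 0.43 ± 0.10 on the log2 scale, or 1.35-fold (adjusted p = 0.0343, edgeR). Hoxc9, which sets thoracic motor neuron identity, had 8.01 and 6.73 CPM in siH1f0, against 11.9 and 9.72 CPM in siControl. Its groups did not overlap either, and it fell by 0.56 ± 0.12 to 0.680 of the siControl mean (adjusted p = 0.0347, edgeR). These 2 of 26 genes are 7.69%, against 6.55% of all tested genes, and by direction 1 of 26 higher stood against 2.27% and 1 of 26 lower against 4.27%. The share of Hox genes called was thus near that of the genes at large.

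The other 24 tested genes had log2 differences of -0.31 to 0.32 and adjusted p of 0.18 or more. The lower end was Hoxb8, with 4.12 and 4.16 CPM in siH1f0, against 5.37 and 4.90 CPM in siControl (adjusted p = 0.18, edgeR). Hoxa5, a high HoxA gene, had 28.6 and 26.8 CPM in siH1f0, against 26.1 and 23.8 CPM in siControl (0.15 ± 0.07, adjusted p = 0.241, edgeR). Hoxb7, the highest HoxB gene, had 19.9 and 20.4 CPM in siH1f0, against 21.6 and 22.3 CPM in siControl (-0.13 ± 0.06, adjusted p = 0.29, edgeR). Hoxc8 was at 84.8 and 86.3 CPM in siH1f0, against 80.8 and 83.7 CPM in siControl (0.06 ± 0.05, adjusted p = 0.525, edgeR).

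By cluster, 7 of 11 HoxA genes had a log2 difference above 0 (median 0.10), 3 of 8 HoxB genes (median -0.07) and 5 of 7 HoxC genes (median 0.06). Over the 26 the median was 0.01, against 0.00 over all tested genes, and 11 were below 0, against 49.0% of all tested genes. Group ranges were separate for 15 Hox genes, or 57.7%, against 50.6% of all tested genes. Of these, 9 were higher against 25.4% of all genes, and 6 were lower against 25.2%. All 5 such HoxA genes were higher in siH1f0, namely Hoxa2, Hoxa3, Hoxa5, Hoxa6 and Hoxa10, of which Hoxa2 passed the test. Both calls were lost without either siH1f0 library, at adjusted p of 0.206 to 0.267 for Hoxa2 and 0.115 to 0.27 for Hoxc9, and also without either siJunb library (0.0604 to 0.062 and 0.0861 to 0.0866), which enters the fit through the shared spread, or with the 4 compared libraries alone (0.0654 and 0.0917). Hoxa2 was also lost with the replicate number as a block (adjusted p = 0.0604). Without siControl replicate 1, Hoxa2 was at 0.44 (adjusted p = 0.00212) and Hoxc9 at -0.40 (adjusted p = 0.00712), and Hoxa3 (0.29), Hoxa5 (0.22) and Hoxa7 (-0.18) were called besides. These 3 higher and 2 lower of 26 stood against 21.0% of all genes tested in that fit, with a Hox median of 0.03 and 12 below 0. Set against siControl replicate 2 alone, 14 Hox genes were higher in both siH1f0 libraries, against 40.4% of all tested genes, and 12 were lower in both, against 39.9%.

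The region upstream of Hoxa2 is given because Hoxa2 was called in both comparisons of siH1f0. It is chr6:52164832-52165081 of GRCm38.p6 from RefSeq, 250 bases read 5′ to 3′ on the minus strand, with CG dinucleotides in capitals.
Hoxa2: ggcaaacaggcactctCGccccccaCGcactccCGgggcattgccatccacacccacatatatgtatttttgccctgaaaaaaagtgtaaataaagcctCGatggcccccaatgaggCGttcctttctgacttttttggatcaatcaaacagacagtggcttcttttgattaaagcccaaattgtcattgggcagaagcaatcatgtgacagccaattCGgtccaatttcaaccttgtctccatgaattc
It held 6 CG dinucleotides, and neither AP-1-type motif occurred in the Hoxa2 window.

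**Figure D4:**
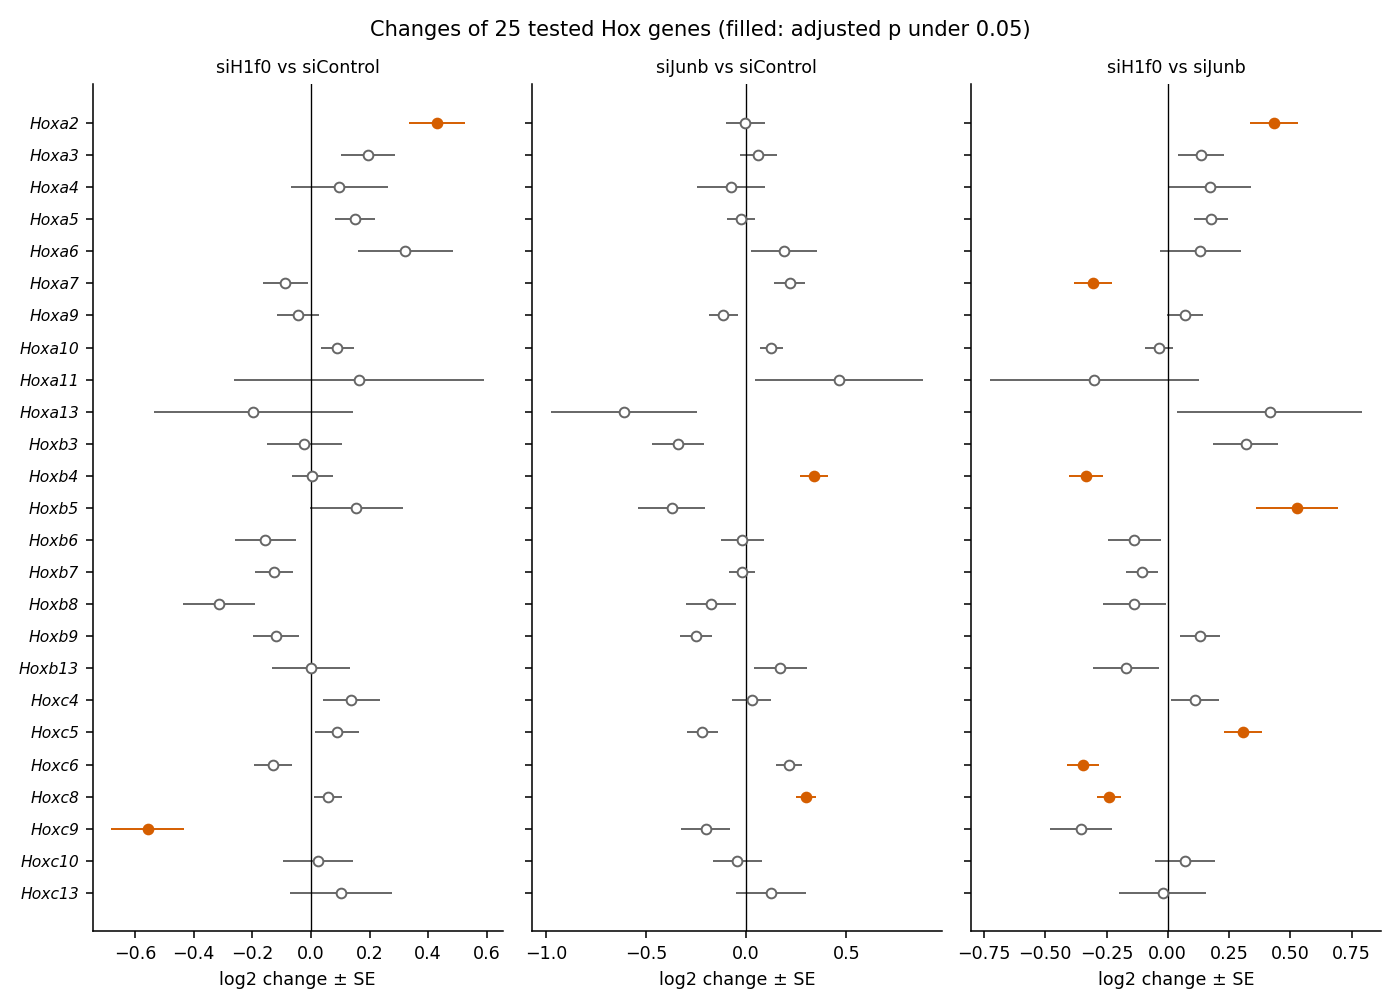
Log2 change ± SE of 25 of the 26 tested Hox genes, ordered by cluster and paralog number, for siH1f0 against siControl, siJunb against siControl and siH1f0 against siJunb, each panel with its own x scale. Filled points passed an adjusted p under 0.05, and the direct comparison holds 7 of them, 3 higher and 4 lower in siH1f0.

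Set against each other, the knockdowns differed at 7 Hox genes. Hoxa2, Hoxb5 and Hoxc5 were higher in siH1f0 than in siJunb, and Hoxa7, Hoxb4, Hoxc6 and Hoxc8 were lower. The 7 of 26 are 26.9%, against 25.9% of all tested genes, with 3 of 26 higher against 12.2% and 4 of 26 lower against 13.8%, so the Hox share was again near the background.

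Hoxa2 had 11.3 and 10.9 CPM in siH1f0, against 7.66 and 8.83 CPM in siJunb (0.43 ± 0.10, adjusted p = 0.0124, edgeR). Hoxb5, known for roles in lung and enteric neurons, had 3.37 and 3.28 CPM in siH1f0, against 2.59 and 1.99 CPM in siJunb (0.53 ± 0.17, adjusted p = 0.0472, edgeR). Hoxc5 had 13.2 and 13.9 CPM in siH1f0, against 10.9 and 11.0 CPM in siJunb (0.31 ± 0.08, adjusted p = 0.0199, edgeR). In none of these 3 did the libraries of the groups overlap. Against siControl, Hoxb5 and Hoxc5 passed no test: both were a little higher in the siH1f0 libraries (0.16 and 0.09) and lower in the siJunb libraries (-0.37 and -0.22).

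Among the lower genes, Hoxc6 had 39.6 and 41.8 CPM in siH1f0, against 50.3 and 53.2 CPM in siJunb, and fell by 0.34 ± 0.07 (adjusted p = 0.00568, edgeR). Hoxc8 had 84.8 and 86.3 CPM in siH1f0, against 101 and 101 CPM in siJunb, and fell by 0.24 ± 0.05 (adjusted p = 0.00767, edgeR). These neighbours on HoxC moved the same way. Hoxb4 had 16.9 and 17.1 CPM in siH1f0, against 21.5 and 21.3 CPM in siJunb, and fell by 0.33 ± 0.07 (adjusted p = 0.00897, edgeR). Hoxa7 had 26.0 and 27.5 CPM in siH1f0, against 32.2 and 33.9 CPM in siJunb, and fell by 0.30 ± 0.08 (adjusted p = 0.0200, edgeR). Hoxc9, the gene lowered in siH1f0 against siControl, missed the threshold here, with 8.01 and 6.73 CPM in siH1f0 against 9.46 and 9.35 CPM in siJunb (-0.35 ± 0.13, adjusted p = 0.0715, edgeR).

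Adjacent genes of a cluster did not move as a block. On HoxC, Hoxc5 was higher in siH1f0 than in siJunb while Hoxc6, next to it, and Hoxc8 were lower. On HoxB, Hoxb5 was higher and Hoxb4 lower. Group ranges were separate for 21 of 26 genes, or 80.8%, against 71.7% of all tested genes. Of these, 11 were higher against 35.4% of all genes, and 10 were lower against 36.3%. The median log2 difference of the 26 was 0.02, against 0.00 over all tested genes, with 13 below 0, against 49.9% of all tested genes.

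The direct calls each depended on the libraries compared. Without siH1f0 replicate 1, 0 of the 7 genes were called, with adjusted p up to 0.189. Without siH1f0 replicate 2 only Hoxc6 was, and likewise without siJunb replicate 1, while without siJunb replicate 2 only Hoxa2 was. The directions were kept in every one of these fits for all 7 genes. Hoxb5 was also lost with DESeq2 (adjusted p = 0.0531) and limma-voom (adjusted p = 0.0651). With siControl replicate 1 left out, which lies outside this contrast but enters the shared spread, 10 Hox genes were called, the 7 and Hoxa5 (0.18), Hoxb3 (0.32) and Hoxc9 (-0.36). By direction they were 5 higher and 5 lower of 26, against 47.0% of all genes called in that fit in either direction.

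**Figure D5:**
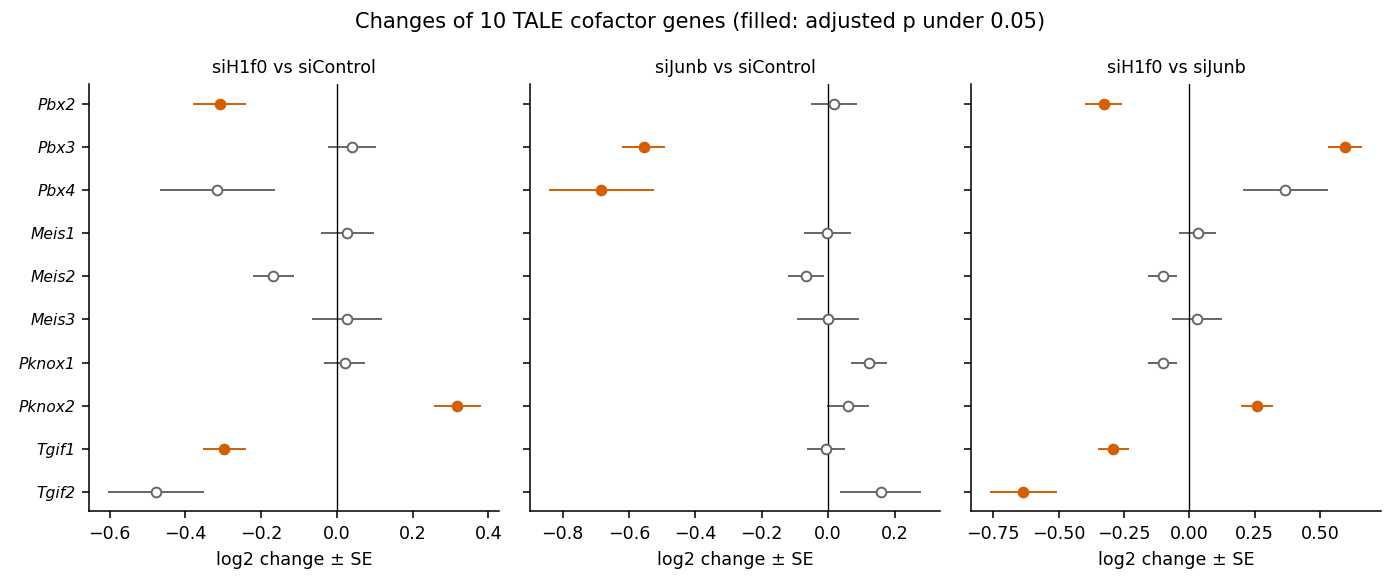
Log2 change ± SE of 10 of the 11 TALE cofactor genes for siH1f0 against siControl, siJunb against siControl and siH1f0 against siJunb, each panel with its own x scale and filled points for an adjusted p under 0.05. Pbx3 and Pbx4 are lower in siJunb, and Pbx2 and Tgif1 lower and Pknox2 higher in siH1f0.

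The TALE genes listed as cofactors, among them the PBX and MEIS partners of Hox proteins, were all expressed and all 11 were tested. In siJunb 0 rose and 3 fell by edgeR, DESeq2 and limma-voom alike, against edgeR backgrounds of 8.63% and 7.82%, and at an unadjusted p under 0.05 the numbers were also 0 and 3. Pbx3 and Pbx4, partners of Hox proteins, were among them. Pbx3 had 31.4 and 28.6 CPM in siJunb, against 43.7 and 44.7 CPM in siControl, and fell by 0.56 ± 0.07 (adjusted p = 0.00148, edgeR). Pbx4 had 3.42 and 2.89 CPM in siJunb, against 5.69 and 4.45 CPM in siControl, and fell by 0.68 ± 0.16 (adjusted p = 0.0214, edgeR). Pbx3 was called in all 14 alternative fits, while the call of Pbx4 was lost without siJunb replicate 1 or replicate 2, with adjusted p up to 0.167. The median of the 11 was 0.00. In the fit lacking siControl replicate 1, 0 were higher and 4 lower, against 33.6% of all genes in either direction, with Pbx3 at -0.57, Pbx4 at -0.49 and Meis2 called besides at -0.12.

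In siH1f0 1 cofactor rose and 2 fell against siControl, against 2.27% and 4.27% of all tested genes. Pknox2 had 24.8 and 25.2 CPM in siH1f0, against 19.8 and 20.3 CPM in siControl, and rose by 0.32 ± 0.06 (adjusted p = 0.0210, edgeR). Tgif1, a TALE repressor, had 74.7 and 73.1 CPM in siH1f0, against 94.9 and 86.6 CPM in siControl, and fell by 0.30 ± 0.06 (adjusted p = 0.0208, edgeR). Pbx2 had 29.3 and 29.6 CPM in siH1f0, against 37.9 and 35.1 CPM in siControl, and fell by 0.31 ± 0.07 (adjusted p = 0.0355, edgeR). All 3 were lost without any 1 of the siH1f0 or siJunb libraries, with adjusted p up to 0.275. Without siControl replicate 1 the 3 were called, at 0.30 for Pknox2, -0.23 for Tgif1 and -0.25 for Pbx2, and Meis2 (-0.23) and Tgif2 (-0.48) were called besides, 1 higher and 4 lower in all, against 21.0% of all genes in either direction. Between the knockdowns 3 cofactors were higher and 3 lower in siH1f0, against 12.2% and 13.8% of all tested genes, led by Pbx3 (0.60, adjusted p = 0.000411, edgeR). Meis1, Meis2 and Meis3 passed no test in any comparison with all 6 libraries.

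Transcripts of the listed Hox noncoding RNAs were scarce in these poly(A) libraries. The count table held 16 of them, of which 5 were tested: Hotairm1, Hoxa11os, Hoxaas2, Hoxaas3 and Hoxb5os. MicroRNA genes such as Mir10a and Mir196b are among the 16, and these counts do not give the levels of mature microRNAs. Of the 5 tested, 0 were called in each of the 3 comparisons by edgeR, DESeq2 or limma-voom. At an unadjusted p under 0.05 there were 1 in siH1f0 against siControl, 0 in siJunb against siControl and 2 in siH1f0 against siJunb. Leaving out siControl replicate 1, 0 were called against siControl in either knockdown, and Hotairm1 was called between the knockdowns (-0.44, adjusted p = 0.043, edgeR). Hotairm1 had 1.71 and 2.21 CPM in siH1f0, 2.70 and 2.64 CPM in siJunb, against 2.53 and 2.72 CPM in siControl. Hotair, from HoxC, had 10 counts over the 6 libraries and Hottip, from the 5′ end of HoxA, had 3, while Haglr and Hoxd3os1 of HoxD were at 0.

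Of 18 tested genes flanking the clusters, 0 were called in siH1f0 against siControl by edgeR, DESeq2 or limma-voom, where edgeR backgrounds were 2.27% higher and 4.27% lower and 2 flanking genes had an unadjusted p under 0.05. In siJunb 2 rose and 1 fell, against 8.63% and 7.82% of all tested genes. Cbx5, which encodes the heterochromatin protein HP1-alpha and lies near HoxC, had 614 and 613 CPM in siJunb, against 465 and 539 CPM in siControl, and rose by 0.29 ± 0.07 (adjusted p = 0.0198, edgeR). Skap2, beside HoxA, rose by 0.23 ± 0.05 (adjusted p = 0.0242, edgeR), and Chn1, near HoxD, fell by 0.32 ± 0.07 (adjusted p = 0.0177, edgeR). Each was lost without any 1 of the siH1f0 or siJunb libraries, with adjusted p up to 0.167 for Chn1, 0.149 for Cbx5 and 0.231 for Skap2. Chn1 and the other HoxD neighbours that passed the expression filter were thus read in cells where HoxD itself was not. Evx2, a HoxD neighbour of the same list, had 0 counts in all 6 libraries. Without siControl replicate 1, 5 flanking genes were higher and 1 lower in siJunb, against 33.6% of all genes in either direction, and 3 were higher and 1 lower in siH1f0, against 21.0%. Cbx5 was then at 0.19 in siJunb and at -0.17 in siH1f0, and called in both. Between the knockdowns 1 flanking gene was higher and 4 were lower in siH1f0, against 12.2% and 13.8% of all tested genes.

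All 28 chromatin regulators of Hox genes were tested. In siJunb 2 rose and 2 fell, against 8.63% and 7.82% of all tested genes, so the share called was near the background. Ezh2, the Polycomb methyltransferase, had 87.1 and 86.5 CPM in siJunb, against 107 and 105 CPM in siControl, and fell by 0.28 ± 0.05 (adjusted p = 0.00574, edgeR). Suz12, a core subunit of the same complex, had 181 and 186 CPM in siJunb, against 203 and 223 CPM in siControl, and fell by 0.22 ± 0.06 (adjusted p = 0.0327, edgeR). Ezh1 and Wdr5 rose by 0.19 and 0.21 (adjusted p = 0.0477 and 0.0464, edgeR), and these calls and that of Suz12 were lost without any 1 of the siH1f0 or siJunb libraries, with adjusted p up to 0.301, while that of Ezh2 was lost without either siJunb library, with adjusted p up to 0.0944. With siControl replicate 1 left out, 3 were higher and 7 lower, against 33.6% of all genes in either direction, the 4 named among them.

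In siH1f0 1 regulator rose and 2 fell, against 2.27% and 4.27% of all tested genes. Suz12 had 258 and 264 CPM in siH1f0, against 203 and 223 CPM in siControl, and rose by 0.29 ± 0.06 (adjusted p = 0.0195, edgeR). Mllt3 fell by 0.32 ± 0.06 (adjusted p = 0.0144, edgeR) and Dot1l, the H3K79 methyltransferase, by 0.33 ± 0.07 (adjusted p = 0.0292, edgeR). All 3 were lost without any 1 of the siH1f0 or siJunb libraries, with adjusted p up to 0.231. In the fit lacking siControl replicate 1, 2 were higher and 5 lower, against 21.0% of all genes in either direction, with Suz12 at 0.23, Mllt3 at -0.39 and Dot1l at -0.43. With all 6 libraries Suz12 was the only gene of the lists called in opposite directions in the knockdowns, while without siControl replicate 1 Cbx5, Chn1 and Ezh1 were so as well. The direct difference of Suz12 was 0.51 ± 0.06 (adjusted p = 0.000409, edgeR), called in all 14 alternative fits. In that direct comparison 3 regulators were higher and 4 lower in siH1f0, against 12.2% and 13.8% of all tested genes.

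Of 11 tested genes of the retinoic acid pathway, a direct inducer of 3′ Hox genes, 2 rose and 1 fell in siJunb, against 8.63% and 7.82% of all tested genes. Dhrs3, a retinal reductase, had 10.9 and 11.5 CPM in siJunb, against 8.17 and 7.36 CPM in siControl, and rose by 0.52 ± 0.10 (adjusted p = 0.00984, edgeR). Rdh10, a retinol dehydrogenase, rose by 0.27 ± 0.06 (adjusted p = 0.0196, edgeR). Cyp26b1, which degrades retinoic acid, had 0.687 and 0.628 CPM in siJunb, against 1.21 and 1.18 CPM in siControl, and fell by 0.86 ± 0.24 (adjusted p = 0.0453, edgeR). The Cyp26b1 call was lost without 5 of the 6 libraries left out in turn, siControl replicate 1 among them, with adjusted p up to 0.222, and neither DESeq2 nor limma-voom made it. That of Rdh10 was lost without any 1 of the siH1f0 or siJunb libraries (up to 0.157) and that of Dhrs3 without either siJunb library (up to 0.0982). Leaving out siControl replicate 1, 3 were higher, with Dhrs3 at 0.60, Rdh10 at 0.27 and Rarg, a retinoic acid receptor gene, at 0.16, and 0 were lower, against 33.6% of all genes in either direction. In siH1f0 0 rose and 1 fell against 2.27% and 4.27% of all tested genes (also by DESeq2 and limma-voom, with 1 and 1 at an unadjusted p under 0.05), the retinoid X receptor gene Rxrb (-0.23, adjusted p = 0.0401, edgeR), and this was lost without any 1 of the siH1f0 or siJunb libraries, with adjusted p up to 0.335. Without siControl replicate 1 Rxrb was at -0.19 and Rdh10, at 0.235, was called besides, against 21.0% of all genes called in either direction.

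Other positional factors of mesenchyme, homeobox and T-box genes among them, were listed as well. Of 42 listed, 24 were tested, and 0 rose, 4 fell and 20 did not pass the test in siJunb by edgeR, against 8.63% higher and 7.82% lower over all tested genes. DESeq2 called 1 higher and limma-voom 0, and 2 higher and 7 lower had an unadjusted p under 0.05. Foxd1, a marker of kidney and facial mesenchyme, had 61.9 and 59.8 CPM in siJunb, against 82.5 and 78.6 CPM in siControl, and fell by 0.40 ± 0.06 (adjusted p = 0.00385, edgeR). Tbx3, a limb and heart T-box factor, had 31.4 and 32.7 CPM in siJunb, against 40.5 and 40.6 CPM in siControl, and fell by 0.34 ± 0.06 (adjusted p = 0.00682, edgeR). Irx3 fell by 0.57 ± 0.13 (adjusted p = 0.0202, edgeR) and Emx2 by 0.45 ± 0.11 (adjusted p = 0.0279, edgeR). The calls of Foxd1, Tbx3 and Emx2 were lost without siJunb replicate 1 or replicate 2, with adjusted p up to 0.069, 0.102 and 0.206, and that of Irx3 without siJunb replicate 2 (adjusted p = 0.155). Without siControl replicate 1, 1 was higher (Prrx1, at 0.12) and 6 were lower, the 4 with Shox2 (-0.28) and Irx5 (-0.34), against 33.6% of all genes in either direction. In siH1f0 0 rose and 1 fell against 2.27% and 4.27% of all tested genes (also by DESeq2 and limma-voom, with 3 and 4 at an unadjusted p under 0.05), namely Foxf2, by 0.30 (adjusted p = 0.0249, edgeR), which was lost without any 1 of the siH1f0 or siJunb libraries, with adjusted p up to 0.239. With siControl replicate 1 left out, 2 were higher and 2 lower in siH1f0, against 21.0% of all genes in either direction. Between the knockdowns 5 were higher and 2 lower in siH1f0, against 12.2% and 13.8% of all tested genes, with Tbx15 at 0.32 and Tbx3 at 0.31 among the higher.

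Site-specific factors outside the trunk pattern were near 0. Pitx1 and Tbx4, which mark hindlimb, had 1 and 8 counts over the 6 libraries, and the cardiac factors Hand1 and Hand2 were at 0. Of the 6 ParaHox genes 0 were tested: Cdx4 had 1 count and Cdx1, Cdx2, Gsx1, Gsx2 and Pdx1 had 0.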

How the data were processed

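The authors deposited 1 table of counts, unnormalised whole numbers for each gene symbol, with a column of gene lengths. Per the submitters' processing notes, HISAT2, featureCounts, Subread and the build mm10 were used, with no versions given. No source used here gives the annotation release, the use of strand or the handling of multiply matching reads. The RefSeq GRCm38.p6 table holds 23591 of the 24516 symbols, all 39 Hox genes among them.

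The main test was edgeR 4.0.16 (R 4.3.3): TMM scaling, filterByExpr and the quasi-likelihood F test, with a term for group and no other, on all 6 libraries, and Benjamini-Hochberg adjustment over 13427 genes. CPM use the TMM-scaled library size, and TPM the deposited counts and lengths. Alternatives were RLE or total-count scaling, no filter, a filter at a mean of 1 CPM, limma-voom (limma 3.58.1), DESeq2 1.42.0, fitting the 4 libraries compared, a replicate block, and leaving out each library. The edgeR fit was run on simulated counts for each knockdown against siControl. At a planted change of 1.25-fold it called 37.3% of 67 changed genes for siJunb and 38.8% for siH1f0. At 1.5-fold these shares were 70.1% and 74.6%. False calls were 12 of 142 for siJunb and 16 of 149 for siH1f0. Apart from the planted changes, all simulated libraries shared 1 mean and 1 spread per gene. The wider spread between the siControl libraries was thus not modelled. The direct comparison and the other tools were not simulated. A few values and sequences are left out of the text and plots. Groups come from the sample labels.

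The Hox genes and the lists were chosen with earlier results of these data known. Genes named with values in every library are the Hox genes called in any comparison, the 2 highest per cluster by TPM, and up to 4 called members of a list with the smallest p. Hoxa11, Hoxa13, Hoxb3, Hoxb8, Hotairm1 and the untested genes named besides were chosen after their values were seen.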

Additional observations from a re-analysis of the deposited data

How the results depend on the processing

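The number of genes called moved most with the libraries in the fit. For siJunb against siControl, 2209 genes were called (1159 higher, 1050 lower), 1092 with the 4 libraries compared, and 352 to 5521 leaving out 1 library in turn, and Hox genes numbered 2, 6 without a count filter and 0 to 9 leaving out a library. For siH1f0 against siControl, 879 genes were called, 1921 without a filter, 325 with the 4 libraries compared and 116 to 4931 leaving out a library, and Hox genes numbered 2, 0 with the 4 libraries compared and 0 to 5 leaving out a library. For siH1f0 against siJunb, 3484 genes were called (1637 higher, 1847 lower), 6416 with the 4 libraries compared and 1304 to 6435 leaving out a library, and Hox genes numbered 7 and 0 to 10 leaving out a library. The counts were lowest without a library of a compared knockdown, which leaves that group 1 library, assumed to vary like the others. Total-count scaling turned the split to 884 higher and 1369 lower for siJunb against siControl, and 2222 higher and 1340 lower for siH1f0 against siJunb. Same-numbered libraries did not vary together (correlations of 0.0477, -0.0412 and 0.0627), so no pairing by number was seen. With 2 libraries a group this cannot show that they were prepared separately. The replicate block gave 550 genes and 1 Hox gene for siH1f0 against siControl, 1684 genes for siJunb against siControl and 2919 for the direct comparison.

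The sign of 10 tested Hox genes turned in at least 1 alternative for siH1f0 against siControl, of 10 for siJunb against siControl and of 6 for siH1f0 against siJunb, with differences of up to 0.196, 0.189 and 0.416 in size with all 6 libraries, the last that of Hoxa13. Leaving out a library in turn, the siJunb against siControl difference ran from -0.105 to 0.100 for Hoxa2, from -0.101 to 0.0442 for Hoxa5 and from -0.0602 to 0.0214 for Hoxb7. The siH1f0 against siControl difference ran from -0.179 to 0.0018 for Hoxa7 and from -0.0523 to 0.0562 for Hoxb4, which was at -6.1e-05 without a filter. The cause was not tested. HoxD and Hoxb1 to Hoxb2 stayed at or under 15 counts, so no change there was detectable at this depth.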
